A study of Mus musculus with 2 samples.

Results

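The loci described here are stretches of the mouse genome that lie outside annotated genes and gave reads in both libraries of an adrenal gland study. They were chosen by the deposited gene class, Intergenic, and by position: a locus was kept where its span overlapped an Intergenic locus of the other library on the same strand, by at least 1 bp, on an autosome. At least 1 read in each library was therefore part of the choice. The rule kept 713 of 2972 autosomal intergenic loci in replicate 1 and 710 of 2100 in replicate 2. Loci linked by overlap were merged, which gave 696 recurrent loci, and 671 of these consisted of 1 locus in each library.

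The RNA came from whole adrenal glands of female mice aged 36 days of the strain B6CASTF1/J, a cross of C57BL/6J with CAST/EiJ. Both libraries form 1 group with no treatment, so there is no contrast of conditions and the only comparison is of replicate 2 with replicate 1. The labels are unclear on whether the glands came from the same animal, since their number is shared in a description and differs in another. The p-values below refer to these libraries and to counting error, and any difference may be technical. In long-read RNA sequencing 1 read can cover a transcript from end to end, and coordinates and strands are those of the deposited mm10 files.

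Transcripts outside the annotated genes of a mammalian genome are of several known kinds. Long non-coding RNAs have promoters, exons and polyadenylation sites of their own. Many promoters are also transcribed in the opposite direction, and such divergent RNAs are usually short because polyadenylation signals lie close to their start. Transcription can run on past the end of a gene, and processed pseudogenes, which are reverse-transcribed copies of messenger RNAs, are often annotated shorter than the copy itself. In addition, oligo-dT primers can start at stretches of A inside a transcript.

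Sequence could be shown for those recurrent loci that lie at least 80% inside a RefSeq promoter window, the stretch from 250 bases before a gene's start to 50 after it. Such loci are shown here for 6 genes, and the bases before the gene start are printed 5′ to 3′ on the strand of the locus (RefSeq, GRCm38.p6). The first 5 run divergently from the named gene and are shown because they are short loci held almost whole. Capitals mark AATAAA or ATTAAA, the common polyadenylation signal and its most frequent variant, where it starts within the last 50 bases of the locus.

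chr2:27514996-27515146, minus strand, before Wdr5: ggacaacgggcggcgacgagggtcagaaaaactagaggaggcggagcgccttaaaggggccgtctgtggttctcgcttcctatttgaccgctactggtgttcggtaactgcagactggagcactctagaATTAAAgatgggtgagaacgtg
chr2:32236390-32236590, minus strand, before Pomt1: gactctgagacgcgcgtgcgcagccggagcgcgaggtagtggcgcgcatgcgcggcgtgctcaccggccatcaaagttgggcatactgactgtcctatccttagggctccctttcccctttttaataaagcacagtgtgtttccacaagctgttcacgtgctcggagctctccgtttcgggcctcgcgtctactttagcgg
chr3:105053147-105053309, plus strand, before Cttnbp2nl: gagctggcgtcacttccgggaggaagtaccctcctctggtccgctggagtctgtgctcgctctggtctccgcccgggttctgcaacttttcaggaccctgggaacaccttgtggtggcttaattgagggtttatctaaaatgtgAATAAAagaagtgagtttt
chr4:147848419-147848633, plus strand, before Zfp933: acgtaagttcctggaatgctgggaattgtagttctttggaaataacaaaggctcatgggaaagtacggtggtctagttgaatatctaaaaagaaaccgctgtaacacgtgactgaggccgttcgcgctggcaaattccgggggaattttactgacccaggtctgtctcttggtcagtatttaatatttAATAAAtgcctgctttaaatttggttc
chr11:80383041-80383278, minus strand, before Zfp207: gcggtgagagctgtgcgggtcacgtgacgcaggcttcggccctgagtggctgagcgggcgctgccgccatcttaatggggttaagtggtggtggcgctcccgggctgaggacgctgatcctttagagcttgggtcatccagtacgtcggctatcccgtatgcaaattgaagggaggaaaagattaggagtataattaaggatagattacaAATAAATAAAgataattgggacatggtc

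The first capital stood 19 to 28 bases from the 3′ end in 4 of the 5 loci. At Pomt1, which encodes a protein O-mannosyltransferase, the AATAAA of the printed sequence lies farther from the end than the stretch searched and stays in lower case. The motifs were searched on the strand of the locus, that is opposite to the gene. Over all 31396 autosomal RefSeq windows, 14.7% held AATAAA or ATTAAA anywhere in the 250 bases before the start on that strand, a wider search than the 50-base tail. The 5 loci carried few reads. The locus before Zfp207 had 4 and 5 reads in replicates 1 and 2, and the one before Zfp933 had 4 and 2. Those before Pomt1, Cttnbp2nl and Wdr5, the last a subunit of histone methyltransferase complexes, had 2 and 3, 2 and 2, and 1 and 1. The most read models of both libraries had the same 3′ end to the base in 4 of these loci and differed by 6 bp at Wdr5.

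The 6th locus lies on the strand of its gene, Srebf1, which encodes a transcription factor of lipid synthesis, and ends where the RefSeq transcript starts. It is shown because a run of 24 A in the genome itself stands just before its last base, printed in capitals.

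chr11:60222582-60222831, minus strand, before Srebf1: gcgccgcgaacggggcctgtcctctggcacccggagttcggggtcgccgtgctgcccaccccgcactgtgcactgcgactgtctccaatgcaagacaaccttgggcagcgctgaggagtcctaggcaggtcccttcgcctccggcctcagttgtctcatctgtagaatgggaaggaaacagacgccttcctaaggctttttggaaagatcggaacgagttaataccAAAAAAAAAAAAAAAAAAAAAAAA

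This locus had 2 reads in replicate 1 and 3 in replicate 2, and its 3′ end was the same base in both. That base is also the RefSeq start of Srebf1, and whether reads ran on into the gene is not recorded. A run of at least 15 A on the strand of the gene was present in 0.78% of the 31396 windows. For the other 690 loci, no sequence is printed, and the presence of A runs or polyadenylation motifs was not examined.

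Replicate 1 held 1223776 reads and replicate 2 held 453761, of which 1144572 and 414588 fell on annotated genes. Intergenic loci of all chromosomes took 0.743% and 1.00% of the reads. Markers of the adrenal cortex, 8 of 8 read in both libraries, summed to 64329 and 82602 reads per 1000000 annotated-gene reads, and the 6 chromaffin cell markers to 9957 and 6790. Adipocyte markers summed to 2609 and 5589 and skeletal muscle markers to 875 and 4.82, with 2 of 5 muscle markers read in both. Endothelial and macrophage markers were at 135 and 89.2 and at 97.9 and 84.4. The part of these cell mixtures in the locus values was not tested.

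Loci with more reads were mostly found again more often. In replicate 1, 13.7% of loci with 1 read were overlapped by a locus of replicate 2, against 42.1% of those with 2 to 4 reads, 71.7% with 5 to 9, 79.7% with 10 to 49 and 84.2% with 50 or more. From replicate 2, the deeper replicate 1 held a partner for 23.7% of the loci with 1 read, 91.2% of those with 5 to 9 reads, 90.7% of those with 10 to 49 and all 8 loci with 50 or more. The recurrent loci carried 4385 and 2585 reads in replicates 1 and 2, which is 53.3% and 59.8% of the autosomal intergenic reads. Among loci found in 1 library only, 82.5% and 85.7% rested on a single read.

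**Figure D1:**
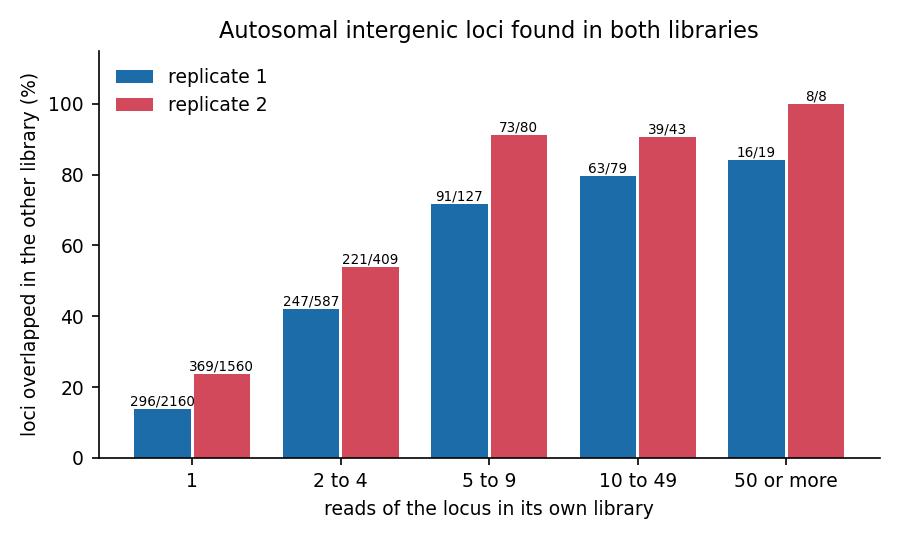
Percent of autosomal intergenic loci of each library (y axis) that overlap a locus of the other library on the same strand, by the reads of the locus in its own library (x axis). Bars are single values per library with loci found and loci in total printed above, and they run from 13.7% to 84.2% in replicate 1 and from 23.7% to 100% in replicate 2.

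Most overlaps were nearly complete. Of 730 pairs of loci, 701 shared at least 90% of the shorter span and 12 shared 10 bp or less, the smallest being 1 bp. Just outside the rule, the closest unmatched pairs on the same strand were 70, 91 and 184 bp apart. The most read locus without a partner had 475 reads in replicate 1. It lies at chr4:91851487-91851668 and starts at the end of the processed pseudogene Gm12671, which itself had 161 reads in replicate 1 and 139 in replicate 2. It was named after its values were seen.

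Reads per recurrent locus were few. The median was 2 in replicate 1 and 1 in replicate 2, with maxima of 183 and 94. A single read was all that 287 loci had in replicate 1 and 358 in replicate 2. Over both libraries 138 loci had at least 10 reads, and 78 had at least 5 in each. The 10 most read loci held 25.9% and 18.7% of the locus reads. Reads of the libraries followed one another across the 696 loci with a Spearman rho of 0.578 and a Pearson r of 0.679 on log2 reads, a description over loci that share 2 libraries and a lower limit of 1 read.

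Most of the loci were unspliced. Only 1-exon models were found at 583 loci, 83.8%, and at 80 loci both libraries held a spliced model. Of those 80, 65 shared at least 1 splice junction to the base, with 90 shared junctions in all and a median intron of 1448 bp. Spliced reads numbered 266 and 182, or 6.07% and 7.04% of the locus reads. Loci of 1 library only had no spliced model in 90.4% of cases in either library.

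A narrow class of lengths stood out. The median span of the recurrent loci was 334 bp, with quartiles of 178 and 1579 bp and extremes of 91 and 139828 bp. At 165 loci, 23.7%, the most read model had 1 exon and 160 to 190 bp in both libraries, whereas 33 loci had 130 to 159 bp and 16 had 191 to 220 bp in both. These limits were set after the lengths were seen. Within the class the median length was 175 bp in replicate 1 and 176 bp in replicate 2, with quartiles of 173 and 178 bp in each.

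**Figure D2:**
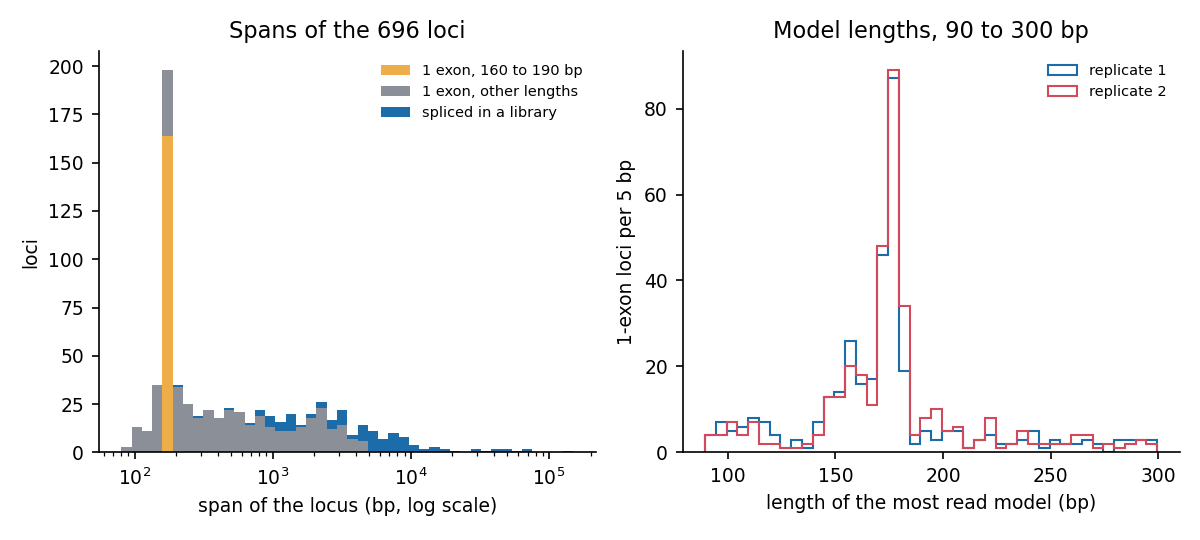
Left, number of loci (y axis) by span in bp (x axis, log scale), stacked by class; right, number of loci with only 1-exon models (y axis) by the length of the most read model (x axis, 5 bp bins) in each library. Both libraries peak near the class medians of 175 and 176 bp.

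The models of this class had nearly the same ends in both libraries. Ends and lengths are those of the deposited models, and the spread of single reads around them was not examined. The most read models of both libraries had 5′ ends within 2 bp at 140 of the 165 loci and 3′ ends within 2 bp at 130. Both ends lay within 10 bp at 93.9% of them and at 36.0% of the other 531 loci, although a narrow length limits how far ends can differ. Each of the 165 had 1 model in each library, as had 85.3% of the others. None of the 165 was overlapped by an unannotated locus on the opposite strand, against 85 of the 531. Short spans leave less room for an overlap with any locus or gene, and span was not accounted for. Plus-strand loci were 49.1% of the class. The class lay farther from genes than the other loci, with a median distance of 5794 bp against 1766 bp. A 5′ end on an annotated transcript end, in at least 1 library, was found at 2 of the 165 and 137 of the 531. A RefSeq gene of either strand overlapped 11.5% of the class against 43.7% of the others. Differences between the length class and the rest were not tested, since the class was picked from these data.

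The same lengths were less frequent elsewhere in the libraries. Among all intergenic 1-exon models, 21.4% in replicate 1 and 29.8% in replicate 2 had 160 to 190 bp. The shares were 5.43% and 8.78% of the antisense models, 4.48% and 6.57% of the Genomic models, which overlap introns of a gene, and 0.693% and 0.407% of the known 1-exon transcripts.

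The reads of each locus were then set against those of the other library by an exact binomial test, two-sided, against the share expected from scaled totals, for the 138 loci with at least 10 reads. Levels are given as scaled CPM, reads per 1000000 annotated-gene reads after TMM scaling, and ratios as log2 of replicate 2 over replicate 1 after adding 1 CPM. At an adjusted p under 0.05 (Benjamini-Hochberg over all 10023 features), 40 loci differed, 29.0%, with 32 higher and 8 lower in replicate 2. Of all features tested, 14.2% differed. Among annotated genes read in both libraries, as the rule demands of the loci, the figure was 13.8%, with 7.95% higher and 5.89% lower in replicate 2. The median log2 ratio was 0.64 over the 138 loci and 0.0047 over those genes. Requiring a read in the shallower library removes loci that are low there, so that the choice can set part of the direction. The test compares 2 libraries with counting error alone.

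The length class took a large part of these calls. Of its 35 loci tested, 20 were higher and 0 lower in replicate 2, with a median log2 ratio of 1.43. Of the other 103 loci, 12 were higher and 8 lower, with a median of 0.28. Summed over the 165 loci, the class had 962 reads in replicate 1 and 989 in replicate 2, or 820 and 2445 scaled CPM. The other 531 loci summed to 2918 and 3946. These sums hold only loci with a read in each library. A single read is worth 0.874 CPM in replicate 1 and 2.41 in replicate 2 before scaling. Over all intergenic 1-exon models, without that choice, other lengths summed to 5517 and 6507 scaled CPM and 160 to 190 bp to 1724 and 3820. In other classes, antisense 1-exon models of this length summed to 1025 and 2524 scaled CPM and Genomic ones to 1714 and 3207, while ISM models of 1 exon, which match part of an annotated transcript, had 1196 and 1105. Known 1-exon transcripts of this length had 895 and 1142. At other lengths, antisense 1-exon models summed to 33350 scaled CPM in replicate 1 and 39451 in replicate 2, and Genomic ones to 58913 and 78505. ISM models of 1 exon at other lengths rose from 22518 to 66506, and known 1-exon transcripts from 68444 to 86975. Higher sums in replicate 2 were therefore not limited to the length class. Spike-in RNA made up 2.12% of all reads in replicate 1 and 3.65% in replicate 2. It was not filtered out of the sums for Genomic, ISM and known models, and its part in them was not tested. Over all reads, spike-ins included, the read-weighted median model length was 1743 bp in replicate 1 and 1478 bp in replicate 2. Models with 1 exon made up 18.8% and 25.9% of these reads. The part of these library properties in the result was not tested.

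**Figure D3:**
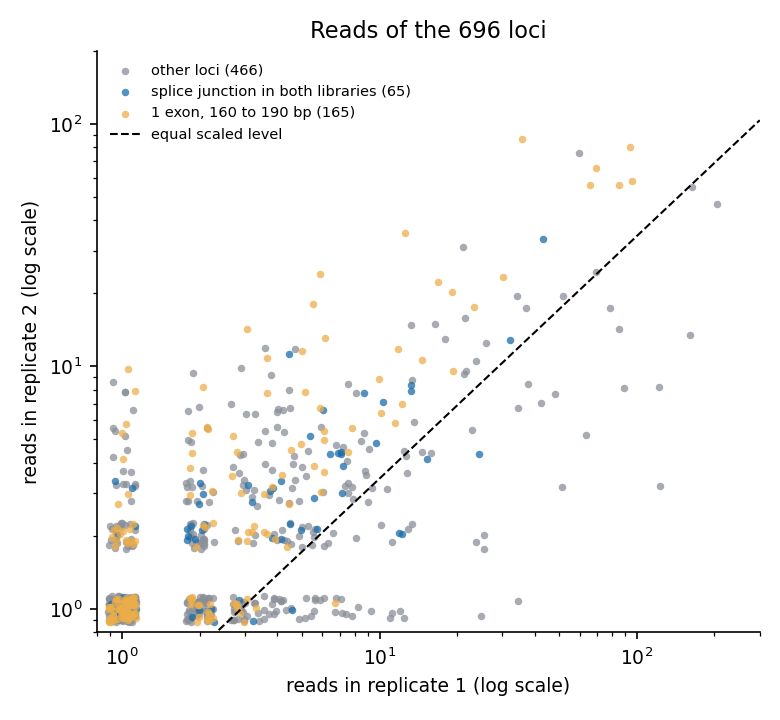
Reads of each of the 696 loci in replicate 1 (x axis) and replicate 2 (y axis), both on log scales, with points spread slightly so that equal values show; the dashed line marks equal scaled level. Loci of 160 to 190 bp (165) lie mostly above the line where reads are many, and 20 of the 35 tested were higher in replicate 2.

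The 5 class members among the 10 most read loci were all higher in replicate 2. The locus at chr7:34182937-34183115, minus strand, 1384 bp past the end of Pdcd2l, had 95 reads in replicate 1 and 81 in replicate 2. This was 81.0 and 200 scaled CPM, a log2 ratio of 1.30 with an adjusted p of 2.1e-07 by the exact binomial test. Its models were 177 and 178 bp long. Pdcd2l itself had 78 and 31 reads.

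At chr15:103619061-103619240, plus strand, 106 and 62 reads were counted, or 90.3 and 153 scaled CPM (log2 ratio 0.76, adjusted p 0.0138, exact binomial test). Its nearest annotated gene, the lincRNA Gm49272, lies 30552 bp downstream and had 0 reads in both libraries. The locus at chr17:74140818-74140999 had 75 and 64 reads (63.9 and 158 scaled CPM, log2 ratio 1.29, adjusted p 7.0e-06, exact binomial test). It is 23311 bp from the processed pseudogene AC162923.1, also without reads.

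At chr7:126099723-126099894, 1821 bp from the opposite-strand gene Xpo6, which encodes a nuclear exportin, 80 and 57 reads gave 68.2 and 141 scaled CPM (log2 ratio 1.04, adjusted p 8.1e-04, exact binomial test). A RefSeq long non-coding RNA, Gm30807, overlaps this place, its strand not compared with that of the locus. The highest ratio among loci with at least 50 reads was at chr7:126643199-126643376, 5167 bp past the antisense transcript 2510046G10Rik. It had 35 reads in replicate 1 and 94 in replicate 2, 29.8 and 232 scaled CPM, and a log2 ratio of 2.92 (adjusted p 8.6e-27, exact binomial test). Its model was 178 bp in both libraries, with the same bases at both ends. The neighbouring transcript had 13 and 0 reads.

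**Figure D4:**
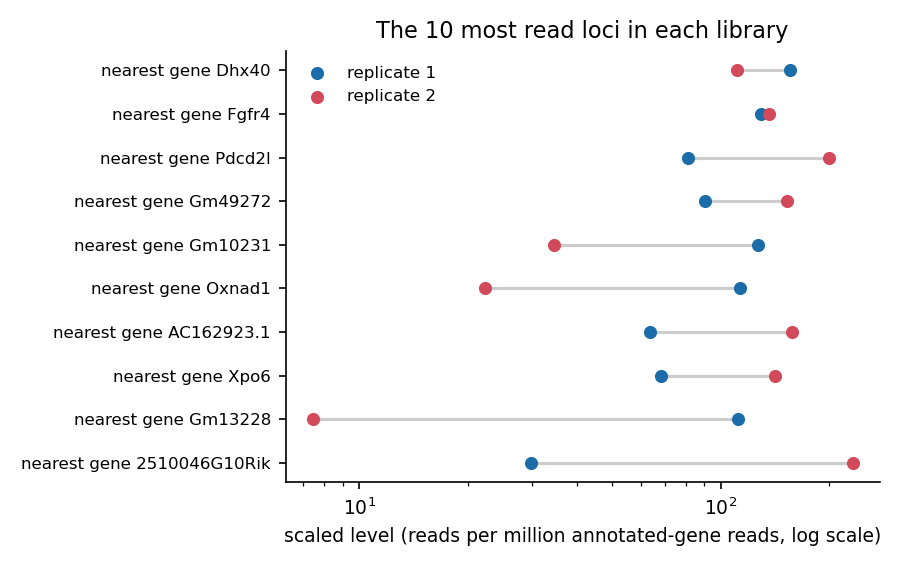
Scaled level (x axis, CPM, log scale) of the 10 most read loci in each library, 1 row per locus, labelled by the nearest annotated gene and joined by a line. The locus near Gm13228 has the widest fall, from 112 to 7.42, and the locus near 2510046G10Rik the widest rise, from 29.8 to 232.

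Outside the class, the leading models of several highly read loci differed in length between the libraries. The most read of all, at chr11:86811826-86816171, minus strand, lies 4080 bp before the start of Dhx40, a DEAH-box helicase gene with 32 and 5 reads. It had 183 and 45 reads, or 156 and 111 scaled CPM, and did not pass the test (log2 ratio -0.48, adjusted p 0.171, exact binomial test). Its leading model had 4304 bp in replicate 1 and 1550 bp in replicate 2, with the same 3′ end to the base and 5′ ends 2754 bp apart.

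The locus at chr13:55184770-55189152, plus strand, 16011 bp past Fgfr4, a fibroblast growth factor receptor gene, had 151 and 55 reads and nearly equal levels of 129 and 136 scaled CPM (adjusted p 0.933, exact binomial test). Here the single model was 148 bp long in replicate 1 and 4382 bp in replicate 2. Their 5′ ends were 1 bp apart and their 3′ ends 4235 bp apart.

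Among loci with at least 50 reads, the lowest ratio was at chr4:145570054-145573616, 912 bp from the processed pseudogene Gm13228. It had 131 reads in replicate 1 and 3 in replicate 2, 112 and 7.42 scaled CPM, a log2 ratio of -3.74 (adjusted p 1.2e-11, exact binomial test). Its model had 3563 bp in replicate 1 and the leading one 223 bp in replicate 2. Past Oxnad1, at chr14:32115639-32120459, 132 and 9 reads gave 113 and 22.3 scaled CPM (log2 ratio -2.29, adjusted p 1.9e-07, exact binomial test). Its leading models were 2611 and 2607 bp long with the same 3′ end. The 3rd lowest of these, at chr6:3200852-3201255, 6614 bp from the processed pseudogene Gm2651, had 68 and 5 reads (58.0 and 12.4 scaled CPM, log2 ratio -2.14, adjusted p 0.00111, exact binomial test), and its leading model was 290 bp in both.

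On the high side, chr11:100459542-100461670 had 56 and 68 reads, or 47.7 and 168 scaled CPM (log2 ratio 1.80, adjusted p 3.2e-10, exact binomial test). It lies 944 bp from the opposite-strand gene Klhl11, a kelch-like family gene with 1 read in each library, and the RefSeq model of Klhl11 overlaps it. The leading models had 2129 and 1128 bp and the same 3′ end. At chr4:126983603-126984220, which starts at the end of the processed pseudogene Gm12939, 20 and 34 reads gave 17.0 and 84.1 scaled CPM (log2 ratio 2.24, adjusted p 2.9e-07, exact binomial test). Gm12939 had 0 reads in both.

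Over all 696 loci, 3′ ends were closer between the libraries than 5′ ends. The most read models ended within 50 bp of each other at 603 loci, 86.6%, and started within 50 bp at 496, 71.3%. The median offset was 1 bp at the 3′ end and 2 bp at the 5′ end, and the upper quartiles were 8 and 95.2 bp. Lengths of the leading models differed more than 2-fold at 139 loci.

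The 5′ end of the locus sat on the exact end of an annotated transcript, of either strand, at 139 loci in at least 1 library, and the 3′ end did so at 36. Where it did, 77.0% of the 5′ ends were the same base in both libraries, against 18.5% elsewhere. The same was seen for loci of all kinds: 16.2% of the autosomal intergenic loci of replicate 1 and 16.0% of those of replicate 2 began on such a base. Some deposited ends are thus annotated bases, and whether reads ran on into the gene is not recorded.

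The loci were close to annotated genes. The median distance was 2898 bp, 530 loci (76.1%) had a gene within 10 kb and 428 (61.5%) within 5 kb. At 171 loci the distance was 0, nearly always because 1 end base was shared, since 2 loci only overlapped an annotated gene by more. Loci of 1 library only had medians of 2393 and 2880 bp, and 77.3% and 75.5% of them had a gene within 10 kb.

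By orientation, 201 loci ran divergently from their nearest gene, 190 lay downstream of it on the same strand, 164 faced it on the opposite strand end to end, and 139 lay upstream of it on the same strand. The shared ends were unevenly spread: 82 of the divergent, 54 of the downstream, 21 of the convergent and 12 of the upstream loci were at distance 0. The nearest gene was protein-coding at 426 loci, a processed pseudogene at 122 and a lincRNA at 57. Among all autosomal annotated genes, 40.6%, 17.4% and 10.2% are of these types, against 61.2%, 17.5% and 8.19% here. Shares of gene numbers are not the shares expected of nearest genes, and ties went to the protein-coding gene. The nearest gene had reads in both libraries at 371 loci and 0 reads in both at 256. A RefSeq gene of either strand overlapped 251 loci, 36.1%. At 112 of them a RefSeq symbol absent from GENCODE M21 was among those overlapping. Strands were not compared for these overlaps, so such a gene need not be the source of the reads.

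**Figure D5:**
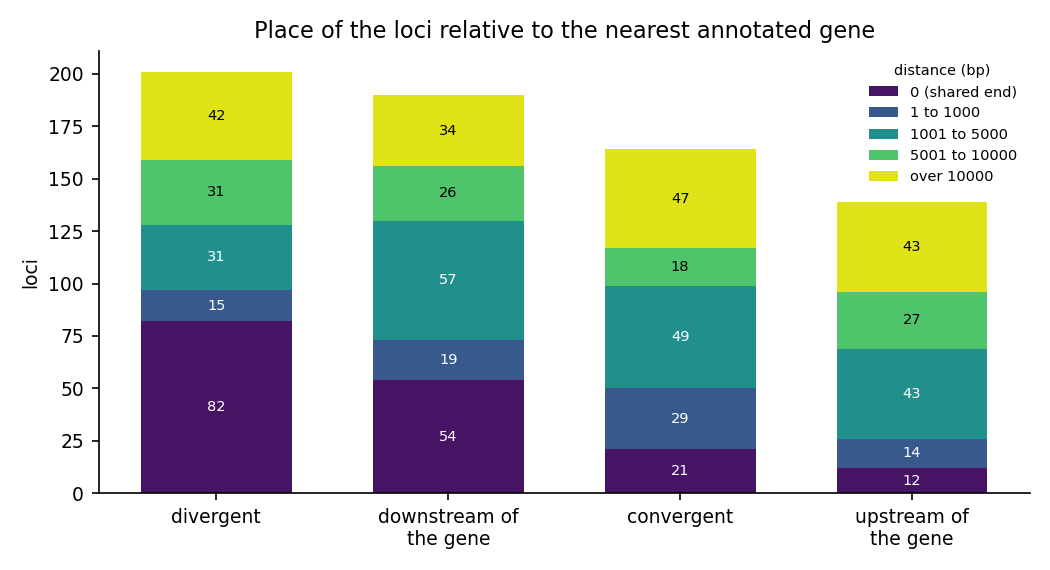
Number of loci (y axis) by place relative to the nearest annotated gene (x axis), stacked by distance in bp; the 2 loci that overlap a gene by more than 1 bp are left out. The divergent and downstream bars hold 82 and 54 loci that share their end base with the gene.

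The 83 loci that begin on the start of a divergent gene, counted over all genes and not the nearest alone, were mostly beside expressed protein-coding genes. The gene was protein-coding at 75 and had reads in both libraries at 73. In sum these loci had 376 reads in replicate 1 and 216 in replicate 2 beside 6154 and 2024 reads of the genes, which is 5.76% and 9.64% of the reads of locus and gene. Their median span was 893 bp, 10 had a shared junction, and 13 had more reads than the gene. The most read, chosen after its values were seen, was chr15:86212657-86214459 beside Tbc1d22a, with 62 and 26 reads against 41 and 20 of the gene. At Prep, which encodes prolyl endopeptidase and was chosen in the same way, chr10:45064860-45067203 had 38 and 20 reads against 83 and 32.

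The 54 loci that begin on the end of a gene of their own strand had another kind of neighbour. The gene was a processed pseudogene at 33 and protein-coding at 16, and it had 0 reads in both libraries at 18. The locus had more reads than the gene at 33 of the 54. None had a shared junction, and 53 had 3′ ends within 50 bp of each other. In sum they had 641 and 219 reads beside 4817 and 1414 reads of the genes. At 37 of them the RefSeq gene of the same symbol reaches over the locus. Reads of pseudogenes and their parent genes can be near-identical, and the values of these loci are uncertain to that extent.

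Gene and locus differed in opposite directions at Gm10231. At chr17:5816051-5816200, minus strand, 149 reads were counted in replicate 1 and 14 in replicate 2, or 127 and 34.6 scaled CPM (log2 ratio -1.85, adjusted p 1.4e-06, exact binomial test). Gm10231 as annotated, whose end is the first base of the locus, had 19 and 110 reads. The RefSeq pseudogene Gm10231 overlaps the locus itself, so the 2 are not clearly separate units. Whether the reads belong to the locus or to Gm10231 was not tested. With the reads of both summed, an alternative chosen after seeing the data, the log2 ratio was 1.09. The locus at chr6:85844459-85844721 meets the processed pseudogene Ptges3-ps end to end on the opposite strand. It had 76 and 17 reads (64.8 and 42.0 scaled CPM, adjusted p 0.354, exact binomial test) and a model of 263 bp with the same ends in both libraries. The RefSeq pseudogene Ptges3-ps overlaps this locus, strands not compared.

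At the other extreme, 166 loci lay more than 10 kb from any annotated gene. They held 1071 and 760 reads, 134 had only 1-exon models, and 62 belonged to the length class of 160 to 190 bp. No RefSeq gene overlapped 128 of them. The farthest locus with at least 10 reads was chr10:47452479-47456634, 126807 bp from the processed pseudogene Gm9068, with 10 and 3 reads. The next was chr15:28980238-28980390, 122466 bp from Gm49280, with 7 and 3 reads and models of 153 and 152 bp. At chr15:8805282-8805436, 94518 bp from Slc1a3, a glutamate transporter gene, 8 and 6 reads were counted on models of 154 and 153 bp. The RefSeq long non-coding RNA Gm31340 overlaps this locus, its strand not compared. None of the 3 passed the exact binomial test, with adjusted p of 1, 0.925 and 0.492.

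The spliced loci were longer and carried few reads. The 65 loci with a shared junction spanned a median of 5099 bp, against 221 bp for loci with only 1-exon models, and their reads over both libraries had medians of 5 and 4. Spans are those of the deposited gene lines, which can be shorter than the models. The locus chr1:157437699-157437889 has a span of 191 bp but leading models of 385 and 330 bp. Of the 20 tested among these 65, 2 were higher and 0 lower in replicate 2, against 14.2% of all features that differed. A RefSeq start on the same strand lay within 500 bp of the 5′ end at 19 of the 65.

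The most read locus with a shared junction was chr2:75638367-75642874, plus strand, 4985 bp from the processed pseudogene Gm13655. It had 40 and 33 reads, or 34.1 and 81.6 scaled CPM (log2 ratio 1.23, adjusted p 0.00472, exact binomial test). Only 4 and 3 of those reads were spliced, over 2 shared junctions. At chr15:82358592-82367882, 2645 bp from the cytochrome P450 gene Cyp2d22 on the opposite strand, 30 and 13 reads were counted, 4 and 1 of them spliced. The locus chr7:48124177-48132211, 6736 bp from the processed pseudogene Gm28665, had 22 and 4 reads. Here 17 and 4 were spliced, and the leading model was 2729 bp long with the same ends in both libraries.

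RefSeq genes lie over some of the spliced loci. At chr4:3192261-3200300, 6903 bp from the vomeronasal receptor gene Vmn1r3, 14 and 8 reads were counted, 7 and 3 of them spliced, and the RefSeq gene Gm52720 starts within 500 bp. The locus chr12:23021929-23025165, 3117 bp from the processed pseudogene Gm48064, had 17 and 4 reads, of which 3 and 1 were spliced. No RefSeq gene overlaps it.

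Among loci with at least 10 reads, the most exons were found at chr5:30551510-30555887, with up to 6 in replicate 1 and 8 in replicate 2. This locus had 14 and 7 reads, 4 shared junctions and an overlapping RefSeq long non-coding RNA, Gm40272, whose strand was not compared. It lies 5674 bp from Cib4. At chr19:55127238-55139883, models had up to 5 and 4 exons with 4 shared junctions, and 7 of 11 reads and 2 of 2 were spliced. This locus runs divergently from the start of Gpam, which encodes a glycerol-3-phosphate acyltransferase and had 142 and 77 reads, and the RefSeq long non-coding RNA Gm31418 starts there. At chr17:17179305-17206387, 28485 bp from the lincRNA Gm5165, models had up to 5 and 4 exons with 3 shared junctions. Here 5 of 7 reads and 2 of 3 were spliced, and the RefSeq gene Gm38396 starts there. Apart from chr2:75638367-75642874, none of the spliced loci named here passed the exact binomial test, with adjusted p from 0.565 to 0.925.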

How the data were processed

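Long-read RNA of 2 adrenal gland libraries (replicates 1 and 2 of 1 group) was used. Values are the authors' deposited counts, raw whole reads for each transcript model, and exon numbers, lengths, classes and positions come from the same files. Per the file headers the models were made with TALON against GENCODE M21 on mm10, per library. Aligner and filters: not given in the sources used here.

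Members and lists were chosen with earlier results of these data known. Gene spans came from annotated transcript lines, because gene lines differed from M21 for 29.7% of autosomal genes. TMM factors were computed with edgeR over annotated genes with at least 10 reads (1.025 and 0.9756). A read is worth 0.874 and 2.41 CPM before scaling, and a count of 0 allows 3 reads, 2.62 and 7.24 CPM. A two-sided exact binomial test, adjusted by Benjamini-Hochberg, was tested on simulated data. Tests cover counting error only. Reads carry no stated molecular identifiers. R 4.3.3, edgeR 4.0.16, DESeq2 1.42.0 (size factors as an alternative), Python 3.11.15 and scipy 1.17.1 were used.

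Loci named were the 10 most read, the 6 most read with a shared junction, and, with at least 10 reads, the 3 nearest to and farthest from a gene and the 3 with most exons. With at least 50 reads, the 3 highest and 3 lowest ratios were added. One locus this rule selects is not reported here.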

Additional observations from a re-analysis of the deposited data

Results flagged for a closer look

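Intergenic signal also appeared outside the autosomes, above the 3 reads that a count of 0 allows. On chromosome X it came to 503 reads in replicate 1 and 141 in replicate 2. On chromosome Y, in libraries from female mice, it came to 78 and 39 reads, and on unplaced scaffolds to 274 and 44.

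Another 3 autosomal loci had many reads in replicate 1 and no overlapping locus in replicate 2. They are chr4:91851487-91851668 with 475 reads, chr11:41500458-41500909 with 120 and chr12:56373459-56373593 with 61. Each begins on the end of a processed pseudogene, Gm12671, Hspd1-ps3 and Cox6c2. These genes had 161 and 139, 2 and 0, and 1 and 0 reads in replicates 1 and 2.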

How the results depend on the processing

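The 696 loci became 692 or 554 when the overlap had to cover at least 50% of the shorter or of each span, and 734 on either strand. They fell to 271 with at least 2 reads in each library and to 431 with replicate 1 thinned to the total of replicate 2. With at least 5 reads in each library, 80.8% had only 1 exon, the median span was 235 bp, 71.8% had a gene within 10 kb, the median distance was 4612 bp and 92.3% of 3′ ends lay within 50 bp. With the overlap covering at least 50% of each span, 86.6% had 1 exon, and the medians were 203 bp for the span and 3471 bp for the distance. With the 696 loci kept but ends and exon numbers taken from 1 library alone, 85.9% to 86.4% had 1 exon. Median spans were then 238 to 256 bp and median distances 3036 to 3130 bp. With protein-coding genes only, 14.7% lay within 5 kb downstream of a gene on the same strand (24.4% with all genes), 59.1% had a gene within 10 kb and the median distance was 5868 bp. With gene lines as written, an alternative added after seeing the data, the median was 3036 bp. Shared junctions were found at 41 loci with at least 2 reads in each library.

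The 40 loci that differed, of 138 tested, became 23 of 81 (28.4%) with replicate 1 thinned, against 12.7% of all features. Without loci of 160 to 190 bp, an alternative chosen after seeing the data, 20 differed. Other scalings gave 38 or 39 of 138, 27.5% to 28.3%, and adding the touching gene gave 46 of 161, 28.6%. Of all features, 14.2% to 14.4% differed under these settings. With no filter on reads, 45 of all 696 loci differed, 6.47%, against 7.06% of all features. TMM over all genes moved the median log2 ratio of all features from -0.0012 to -0.1047. Its higher and lower calls were 635 and 810 over all features, against 811 and 614, and 29 and 9 among the loci. The loci past Fgfr4 (-0.02 with median-ratio factors, -0.03 with TMM over all genes) and near Cyp2d22 (-0.02 when thinned) changed sign without passing the test. The locus at Gm10231 reached 1.09 with the gene's reads added. Near Xpo6 the call was lost when thinned, at 0.67. No paired analysis was possible because there is 1 group. A comparison of libraries cannot leave 1 out. For loci with few reads, absence from a library cannot be told from low depth.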
